A study of Mus musculus with 38 samples.

Results

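SALL4-delN12 occupied 16831 sites at day 6 that carried no SALL4 peak with SALL4-WT. These delN12-only sites are the SALL4 Cut&Tag peaks of the SALL4-delN12 cells with a peak score of at least 100 that overlapped none of the 69475 SALL4 peaks of the SALL4-WT cells by even 1 bp. They make up 16831 of the 41577 SALL4-delN12 peaks with this score and of 67310 SALL4-delN12 peaks in all. The remaining 24746 peaks with this score overlapped a SALL4-WT peak and are called shared, and 13371 SALL4-WT peaks of the same minimum score without a SALL4-delN12 peak are called WT-only. The sites were chosen by the SALL4 scores and peak overlap, so their scores and the absence of SALL4-WT peaks there are a description and no finding. Choosing sites by a SALL4 peak in 1 form only can also favor ATAC-seq and H3K27ac peaks in that form. How far it did so was not tested.

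The cells were mouse embryonic fibroblasts (MEFs) of day 13.5 embryos from a cross of OG2 mice, which carry an Oct4-GFP transgene, with 129S4/SvJaeJ mice. They received 1 form of SALL4 alone from a pMXs retrovirus, either full length (SALL4-WT) or without the N-terminal 12 residues (SALL4-delN12), and were grown in iCD3 medium without BMP4. SALL4 and H3K27ac were profiled at day 6 by Cut&Tag, accessible chromatin at days 1, 5, 9 and 11 by ATAC-seq, which was also run on MEFs, and RNA by bulk RNA-seq on the same 4 days. Both forms were expressed from the same vector, and no sorting of the cells before the libraries was stated. Each library is therefore taken to average over infected cells and cells that were not converted. Fewer cells of a type cannot be told apart from less RNA or signal per cell. Every condition had 1 library or 1 merged Cut&Tag peak list. The forms were compared day by day without a test, the days were not used as replicates, no p-value is given, and all intervals cover counting error only.

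SALL4 is a zinc finger transcription factor of early embryos and germ cells whose zinc finger cluster near the C terminus is known to bind AT-rich DNA. Its extreme N terminus binds NuRD, a complex that combines nucleosome remodeling by CHD4 with removal of acetyl groups from histones by HDAC1 and HDAC2. H3K27ac marks active promoters and enhancers and is among the marks that such deacetylases remove. AP-1, a dimer of FOS and JUN family proteins, is a main occupant of fibroblast enhancers.

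The sequences of 6 sites are printed here, because they show the kinds of sequence and accessibility that the counts below describe. Each is the central 200 bp of a delN12-only peak on the plus strand of mm10, and no SALL4-WT library had an ATAC-seq peak there on any day. Capitals mark ATATT on either strand (read as AATAT on the printed strand where it lies on the minus strand) in the sequences named AT-rich. In those named AP-1 they mark TGANTCA, called the AP-1 core here. It is a loose form that takes any base at the middle position, and matches are not split by that base. The first 4 were open in MEFs and kept an ATAC-seq peak with SALL4-delN12 on all 4 days, and the last 2 had no MEF peak and were open with SALL4-delN12 on all 4 days. Within each kind they are the 2 highest-scoring sites with the motif among introns and intergenic DNA within 50 kb of a transcript start, with ATATT absent from the AP-1 pair and H3K27ac with SALL4-delN12 only required of the last pair.
Fer1l6 AT-rich, chr15:58489342-58489541: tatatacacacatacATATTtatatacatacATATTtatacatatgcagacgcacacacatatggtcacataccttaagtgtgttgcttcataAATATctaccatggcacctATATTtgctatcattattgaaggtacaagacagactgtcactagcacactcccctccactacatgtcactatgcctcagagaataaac
Prlr AT-rich, chr15:10133964-10134163: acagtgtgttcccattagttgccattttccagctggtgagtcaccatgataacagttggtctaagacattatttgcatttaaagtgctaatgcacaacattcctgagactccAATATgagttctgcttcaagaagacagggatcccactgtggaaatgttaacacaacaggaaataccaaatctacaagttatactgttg
Nsf AP-1, chr11:103897088-103897287: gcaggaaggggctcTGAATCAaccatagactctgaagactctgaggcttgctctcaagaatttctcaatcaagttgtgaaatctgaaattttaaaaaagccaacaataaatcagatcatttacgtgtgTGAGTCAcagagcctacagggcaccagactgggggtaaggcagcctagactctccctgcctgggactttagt
Zfp105 AP-1, chr9:122919707-122919906: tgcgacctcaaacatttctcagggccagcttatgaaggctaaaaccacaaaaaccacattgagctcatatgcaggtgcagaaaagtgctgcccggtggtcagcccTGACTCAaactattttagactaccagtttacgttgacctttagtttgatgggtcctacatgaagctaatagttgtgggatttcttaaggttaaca
Ate1 AT-rich, chr7:130414860-130415059: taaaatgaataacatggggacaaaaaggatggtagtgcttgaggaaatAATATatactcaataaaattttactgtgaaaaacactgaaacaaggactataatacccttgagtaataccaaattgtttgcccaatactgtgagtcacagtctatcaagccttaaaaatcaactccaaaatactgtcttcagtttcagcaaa
Bcat2 AT-rich, chr7:45582351-45582550: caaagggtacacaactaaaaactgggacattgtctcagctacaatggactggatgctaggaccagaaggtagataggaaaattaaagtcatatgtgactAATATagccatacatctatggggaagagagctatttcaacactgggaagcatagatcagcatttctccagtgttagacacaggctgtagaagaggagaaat
The Fer1l6 site held 4 matches to ATATT, and 36.0% of its bases lay in annotated repeats. It had a SALL4 score of 562.14, a MEF ATAC-seq score of 289 and SALL4-delN12 ATAC-seq scores of 171, 119, 110 and 200.4 at days 1, 5, 9 and 11. Its H3K27ac score was 382 with SALL4-delN12, and the SALL4-WT cells had no H3K27ac peak there. The Nsf site, in an intron of the gene of the vesicle fusion ATPase NSF, held 2 matches to the AP-1 core. Its ATAC-seq score was 407 in MEFs and 411, 192, 411 and 142 with SALL4-delN12, beside an H3K27ac score of 239. The Ate1 site, in an intron of the gene of an arginyltransferase, had no MEF peak and had ATAC-seq scores of 133, 159, 201 and 61.5 with SALL4-delN12, with an H3K27ac score of 124. The Ate1 and Prlr windows also hold the AP-1 core, which is not capitalized there. The Prlr site, with ATAC-seq scores of 55.9, 76.7, 158 and 254, had no H3K27ac peak in either form. The printed sites were picked by score and state and are not typical, since over all delN12-only sites 31.1% had H3K27ac with SALL4-delN12.

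Fewer of the delN12-only sites lay in promoters than of the other classes. Only 6.65% of them (1119 sites, 95% interval 6.28 to 7.04) fell within 2 kb of the start of a protein-coding transcript in the GENCODE vM21 annotation, against 24.3% of shared and 19.3% of WT-only peaks. Another 54.6% were intergenic and 34.0% intronic, while 3.45% lay in coding exons and 0.986% in untranslated exons. Shared and WT-only peaks were intergenic in 42.1% and 41.1%. The median distance from the peak center to the nearest start was 46.5 kb for delN12-only sites, 18.8 kb for shared and 16.6 kb for WT-only peaks. The sites made up between 33.6% (chromosome 11) and 50.4% (X) of the SALL4-delN12 peaks of a chromosome, leaving aside Y and an unplaced X contig with 2 sites each.

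**Figure D1:**
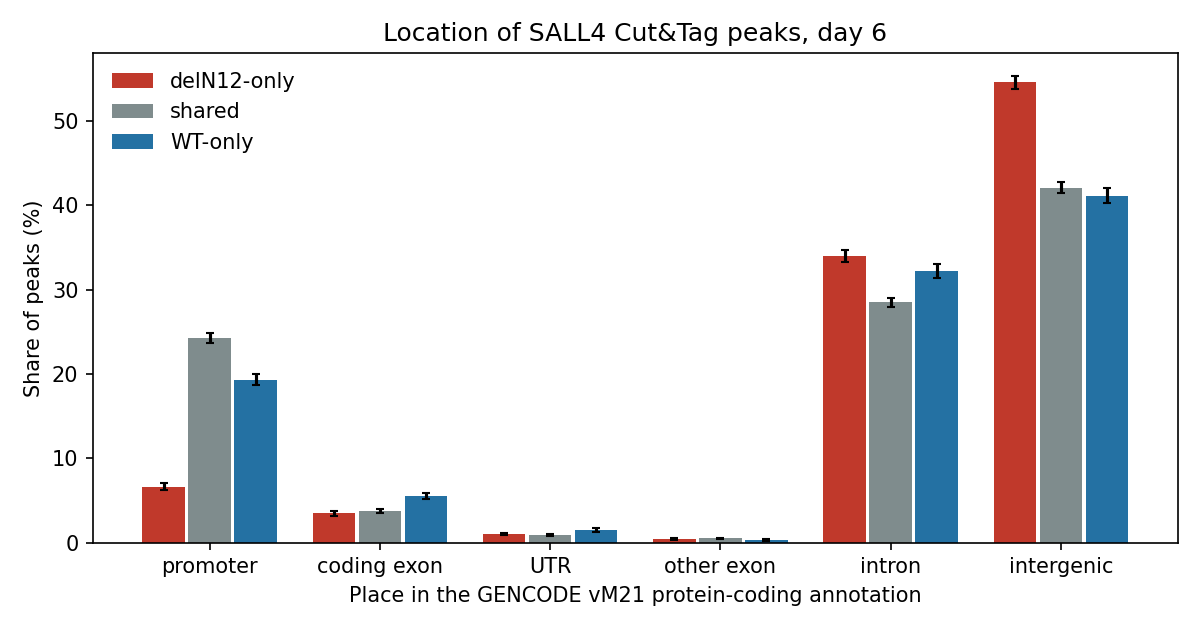
Share of delN12-only, shared and WT-only SALL4 peaks (percent, vertical axis) in each place of the protein-coding annotation (horizontal axis), with exact 95% intervals as error bars. Promoters held 6.65% of delN12-only sites against 24.3% and 19.3% of the other classes, and intergenic DNA 54.6% against 42.1% and 41.1%.

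Few sites had a SALL4-WT peak within 1 kb, but many had one within 10 kb. A SALL4-WT peak lay within 1 kb of 6.54% of the sites and within 10 kb of 44.3%. The peaks were 297 to 6611 bp wide, with a median of 1020 bp, against 1327 bp for shared and 945 bp for WT-only peaks. Their scores ran from 100 to 901.26 with a median of 166, between those of WT-only (142) and shared peaks (202). For sites near the minimum score, the 500 just above it, at scores of 100 to 102.7, overlapped a MEF ATAC-seq peak in 46.0%, and the 500 peaks without a SALL4-WT peak just below it, at 97.34 to 99.99, in 45.6%. H3K27ac with SALL4-delN12 was present at 16.8% of the former and 17.6% of the latter, an ATAC-seq peak with SALL4-delN12 at day 1 at 38.6% and 34.0%, and a promoter at 6.2% and 8.4%. A further 15418 SALL4-delN12 peaks without a SALL4-WT peak had lower scores.

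The delN12-only sites, chosen for a SALL4 peak with SALL4-delN12 only, were open far more often with SALL4-delN12 than with SALL4-WT. A MEF ATAC-seq peak covered 57.6% of them. With SALL4-delN12, 51.7%, 50.2%, 51.6% and 38.7% had an ATAC-seq peak at days 1, 5, 9 and 11. With SALL4-WT the shares were 8.16%, 16.4%, 20% and 26.4% on the same days. The difference between the forms was thus 43.5 percentage points at day 1 and 12.3 points at day 11, and every exact interval was narrower than these gaps. At day 1, 44.8% of the sites had an ATAC-seq peak with SALL4-delN12 only, against 29.8% of all SALL4-delN12 peaks with the same minimum score. At days 5, 9 and 11 these shares were 36.6%, 34.8% and 20%, against 20.9%, 19.5% and 11.7%. A peak with SALL4-WT only was found at 1.2%, 2.78%, 3.22% and 7.7% of the sites at days 1, 5, 9 and 11, against 1.76%, 3.67%, 3.92% and 9.54% of all such peaks. The sites are part of the group they are read against here.

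The numbers of ATAC-seq peaks followed this order at day 1 but not at days 5, 9 and 11. The day 1 lists held 94828 peaks with SALL4-delN12 and 83821 with SALL4-WT, and on the later days the SALL4-WT list was the longer, with 98422 against 89524 at day 5 and 89245 against 78517 at day 11. Shared peaks were open in 91.9% with SALL4-delN12 and 74.4% with SALL4-WT at day 1, and in 79.5% and 84.3% at day 11. WT-only peaks were open in 52.5% with SALL4-delN12 and 68.2% with SALL4-WT at day 1. In that class the SALL4-WT share was higher on all 4 days. Each class chosen by a SALL4 peak in 1 form only was thus more often open with that form.

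**Figure D2:**
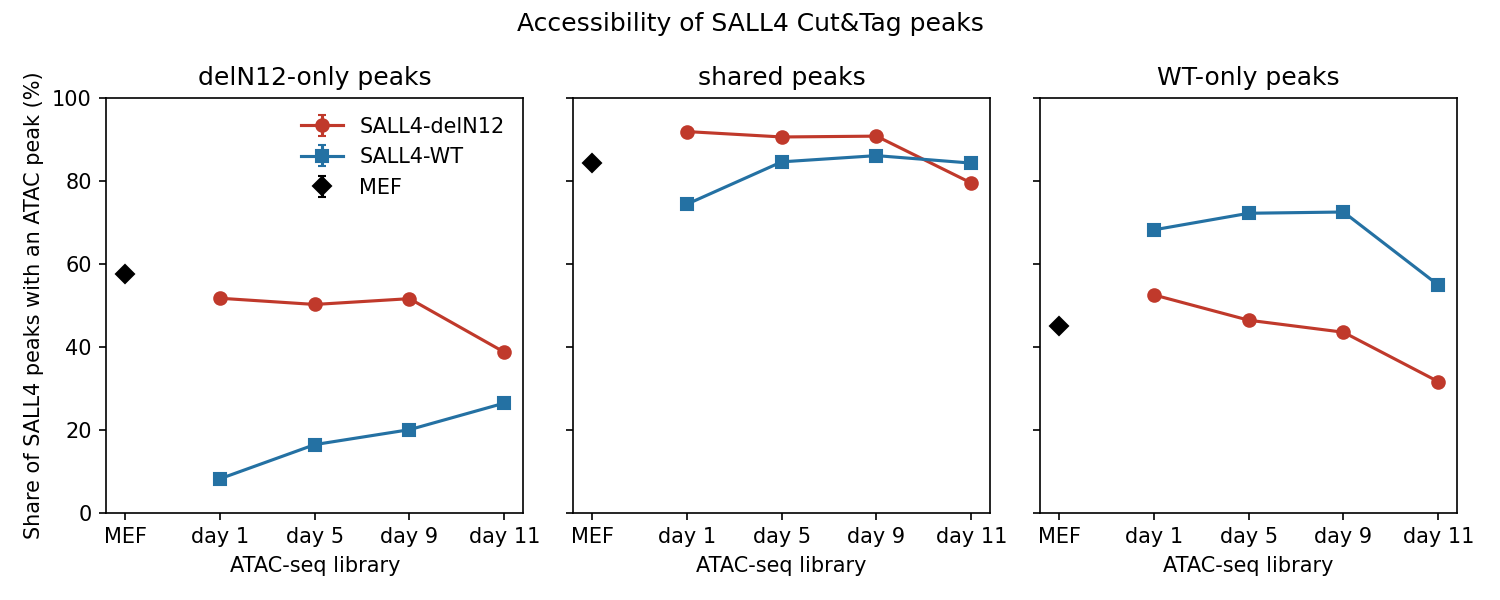
Share of SALL4 peaks (percent, vertical axis) that overlapped an ATAC-seq peak in MEFs and in cells with SALL4-delN12 (red circles) or SALL4-WT (blue squares) at each day (horizontal axis), 1 library per point, with exact 95% intervals that are mostly smaller than the symbols. In delN12-only sites the SALL4-WT share was 8.16% at day 1 and 26.4% at day 11, below SALL4-delN12 at each day.

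What became of chromatin that MEFs already had open differed between the forms. Of the 9702 delN12-only sites with a MEF peak, 61.4% had a peak with SALL4-delN12 at day 1 and 11.9% with SALL4-WT. Over all 125470 MEF peaks these shares were 48.1% and 39.1%. By day 11, 46.1% of the MEF-open sites had a peak with SALL4-delN12 and 32.7% with SALL4-WT, against 43.2% and 48.9% of all MEF peaks. With SALL4-WT, then, the MEF-open sites lacked a peak more often than MEF peaks in general on each of the 4 days. With SALL4-delN12 they had one more often. The sites, with a median of 1020 bp, are wider than MEF ATAC-seq peaks, with a median of 240 bp, which by itself raises the share of sites that overlap a peak. The 7129 sites without a MEF peak were open in 38.5% with SALL4-delN12 and 3.13% with SALL4-WT at day 1, and in 28.8% and 17.8% at day 11.

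Few sites kept 1 state through the series. An ATAC-seq peak with SALL4-delN12 on at least 1 day and none with SALL4-WT was found at 6842 sites (40.7%), and the reverse at 365 (2.17%). A MEF peak that was present with SALL4-delN12 on all 4 days and never with SALL4-WT marked 636 sites (3.78%). Another 3092 sites (18.4%) had no MEF peak, a SALL4-delN12 peak on at least 1 day and no SALL4-WT peak. An ATAC-seq peak in MEFs and in all 8 SALL4 libraries was found at 2.91% of the sites, against 55.8% of shared peaks. No ATAC-seq peak in any of the 9 libraries was found at 13.1% of the sites, against 0.57% of shared and 8.01% of WT-only peaks.

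Strong SALL4-delN12 peaks were more often open. Among the 2159 sites with a score of at least 300, 76.8% had a MEF peak, 77.3% a SALL4-delN12 and 9.73% a SALL4-WT peak at day 1. Among the 6954 sites with scores of 100 to 150 these shares were 49.1%, 40.7% and 7.77%. Shared peaks with scores of 100 to 150 were open in 85.9% with SALL4-delN12 and 71.1% with SALL4-WT.

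The highest-scoring site, with a score of 901.26, lay in an intron of Tspan8, the gene of a tetraspanin membrane protein, at chr10:115820389-115822609, 4.21 kb from the nearest start. Its ATAC-seq score was 107 in MEFs, and 140.4, 282, 212 and 228 with SALL4-delN12 at days 1, 5, 9 and 11. SALL4-WT cells had no peak there until day 11, when the score was 109. Tspan8 RNA was at 0.0643, 1.09, 4.11 and 2.57 FPKM with SALL4-delN12 and at 0.0731, 0.114, 0.15 and 0.59 FPKM with SALL4-WT, a low level in both. Next came a site in an intron of Lin7a, a cell polarity gene, at chr10:107347403-107349473, with a score of 874.71 and no MEF ATAC-seq peak. Lin7a itself reached at most 0.275 FPKM in the 8 libraries. The other 8 of the 10 strongest sites had Megf9, Zpld1, Rasa1, Nup35, Camk1d, Akr1e1, Svep1 and Ccdc71l as the nearest gene, at 21.4 to 1241 kb, and all 8 had a MEF peak. H3K27ac was present with SALL4-delN12 at all 10 and with SALL4-WT at none. Of the 10 genes, Tspan8, Megf9 and Svep1 differed between the forms by at least 1 on the log2(FPKM + 1) scale at day 11, by 1.17, -1.29 and -1.88, beside 6.55% higher and 6.58% lower of all genes tested.

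H3K27ac at the delN12-only sites was seen almost only with SALL4-delN12. An H3K27ac peak covered 31.1% of the sites (5236, 95% interval 30.4 to 31.8) with SALL4-delN12 and 1.18% (199, interval 1.02 to 1.36) with SALL4-WT. It was present with SALL4-delN12 only at 30%, in both forms at 1.08%, and in neither at 68.8%. The 30% lies below the 38.5% of all SALL4-delN12 peaks with this score that had H3K27ac with SALL4-delN12 only. This state was thus not more frequent at these sites than at SALL4-delN12 peaks in general. H3K27ac was not profiled in MEFs, so a gain with SALL4-delN12 and a loss with SALL4-WT cannot be told apart. In shared peaks H3K27ac was present in 80.2% with SALL4-delN12 and 36.7% with SALL4-WT, and in WT-only peaks in 28.6% and 24.3%. The lists themselves were unequal, with 45599 H3K27ac peaks over 74.4 Mb with SALL4-delN12 and 19841 over 34.9 Mb with SALL4-WT. How far depth, the number of modified cells or SALL4 form set this gap was not tested.

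Sites with open chromatin carried H3K27ac more often than sites without. At day 5, the ATAC-seq day next to the Cut&Tag, sites open in both forms carried H3K27ac with SALL4-delN12 in 62.4%, and sites open in neither in 17.3%. For the 6160 sites open with SALL4-delN12 only the share was 36.0%, and for the 468 open with SALL4-WT only it was 46.6%. H3K27ac with SALL4-WT reached 6.23% of the sites open in both forms and 0.227% of those open with SALL4-delN12 only. The 1119 promoter sites stood out with 49.6% in SALL4-delN12 and 10.6% in SALL4-WT, against 29.8% and 0.509% outside promoters. From the weakest to the strongest score class, H3K27ac with SALL4-delN12 went from 21.4% to 54.1%.

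**Figure D3:**
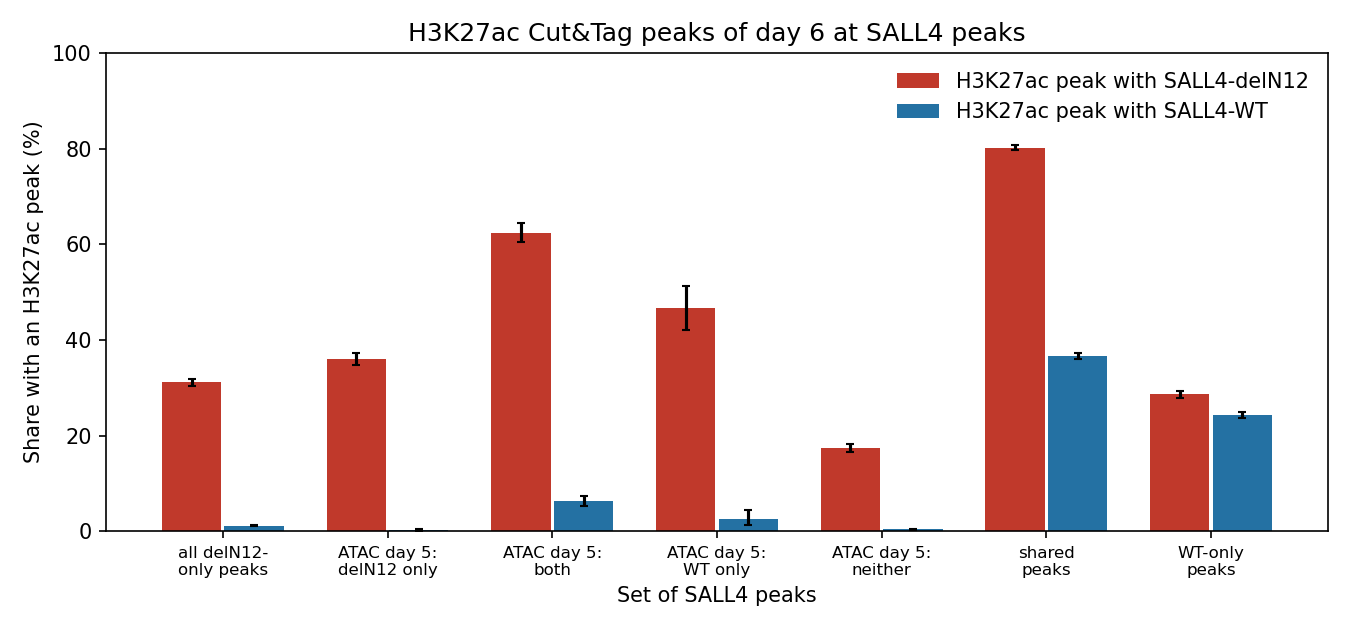
Share of SALL4 peaks (percent, vertical axis) with an H3K27ac Cut&Tag peak at day 6 in SALL4-delN12 (red) and SALL4-WT (blue) cells, for all delN12-only sites, for the sites by ATAC-seq state at day 5, and for shared and WT-only peaks, with exact 95% intervals. H3K27ac with SALL4-WT was found at 1.18% of delN12-only sites and at 36.7% of shared peaks.

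The combination of newly open chromatin and H3K27ac with SALL4-delN12 alone was rare. Without a MEF or SALL4-WT peak, 246 sites (1.46%) were open with SALL4-delN12 at days 9 and 11 and had H3K27ac with SALL4-delN12 only. Among the 10 of highest score, a site 33.9 kb from Dkk2, the gene of a secreted regulator of WNT signaling, at chr3:132050621-132052071, had ATAC-seq scores of 70.3, 232, 245 and 165 and an H3K27ac score of 464. Dkk2 was at 2.89, 4.04 and 4.95 FPKM with SALL4-delN12 at days 5, 9 and 11 and at 11.6, 15.5 and 17.7 FPKM with SALL4-WT. Its level was thus lower in the form with an ATAC-seq peak at the site. A site 98.9 kb from Igf1, the gene of insulin-like growth factor 1, had ATAC-seq scores of 58.0, 135, 278 and 215. Igf1 was at 6.01 FPKM with SALL4-delN12 and 12.4 FPKM with SALL4-WT at day 11, a difference of -0.93 that is below a call. The other genes nearest to the 10 sites were Myo5b, Tyrp1, Arhgap24, Ate1, Glrx, Ppp1r3b, Orc4 and Pcdh18. None of these was called by a difference of 1 on the log2 scale at day 11. They are too few to set against the 6.55% higher and 6.58% lower of all genes tested. For the 264 sites (1.57%) where a MEF peak was kept on 4 days with SALL4-delN12 only and H3K27ac was present with SALL4-delN12 only, the strongest lay 64.7 kb from Emb, the gene of the adhesion protein embigin. Emb was at 41.6 FPKM with SALL4-delN12 and 15.7 FPKM with SALL4-WT at day 11, a difference of 1.36, but at 5.82 and 8.33 FPKM at day 5.

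The sequence of the delN12-only sites was AT-rich. The G+C content of their central 200 bp averaged 41.8% (SD 5.7 over 16829 sites), against 48.3% in shared, 51.8% in WT-only and 50.4% in all MEF ATAC-seq peaks. The letters ATATT, searched on both strands, were found in 39.5% of the sites, 22.4% of shared, 9.78% of WT-only and 21.3% of all MEF ATAC-seq peaks. The mean G+C content of the ATAC-seq lists was 50.8%, 51.9%, 52.0% and 53.4% with SALL4-delN12 and 53.8%, 53.9%, 53.6% and 53.5% with SALL4-WT at days 1, 5, 9 and 11, so the forms differed at day 1 and hardly at day 11. That of the SALL4 lists was 46.0% and 51.0%. The part of the base composition of the libraries in the result was not tested.

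The ATATT difference was smaller at matched base composition. Among windows with 40 to 45% G+C, ATATT was found in 37.0% of the 5858 delN12-only sites, 30.7% of shared, 24.0% of WT-only and 35.9% of MEF ATAC-seq peaks. The sites thus stayed above shared and WT-only peaks, but about level with MEF open chromatin. Among all 16 five-letter words of A and T (each counted together with its reverse complement), ATATT had the highest ratio of delN12-only to WT-only shares, at 4.04 overall and 1.54 at 40 to 45% G+C. At the center of the SALL4-delN12 ATAC-seq peak of day 1 rather than of the Cut&Tag peak, the share was 35.1% in delN12-only, 16.3% in shared and 6.86% in WT-only peaks. Sites with ATATT had a MEF peak in 60.2% and those without in 55.9%, while H3K27ac with SALL4-delN12 was present in 26.6% and 34.0%.

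Accessibility at matched base composition kept its order. At 40 to 45% G+C, 52.6% of delN12-only sites were open with SALL4-delN12 and 6.52% with SALL4-WT at day 1. In the 1390 WT-only peaks of this band the shares were 47.8% and 57.4%, and in the 5776 shared peaks 89.0% and 63.7%. Sites richer in G+C were more often open with SALL4-WT, with 16.4% at 50 to 55% and 32.3% at 55 to 60% G+C, against 61.3% and 65.4% with SALL4-delN12.

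**Figure D4:**
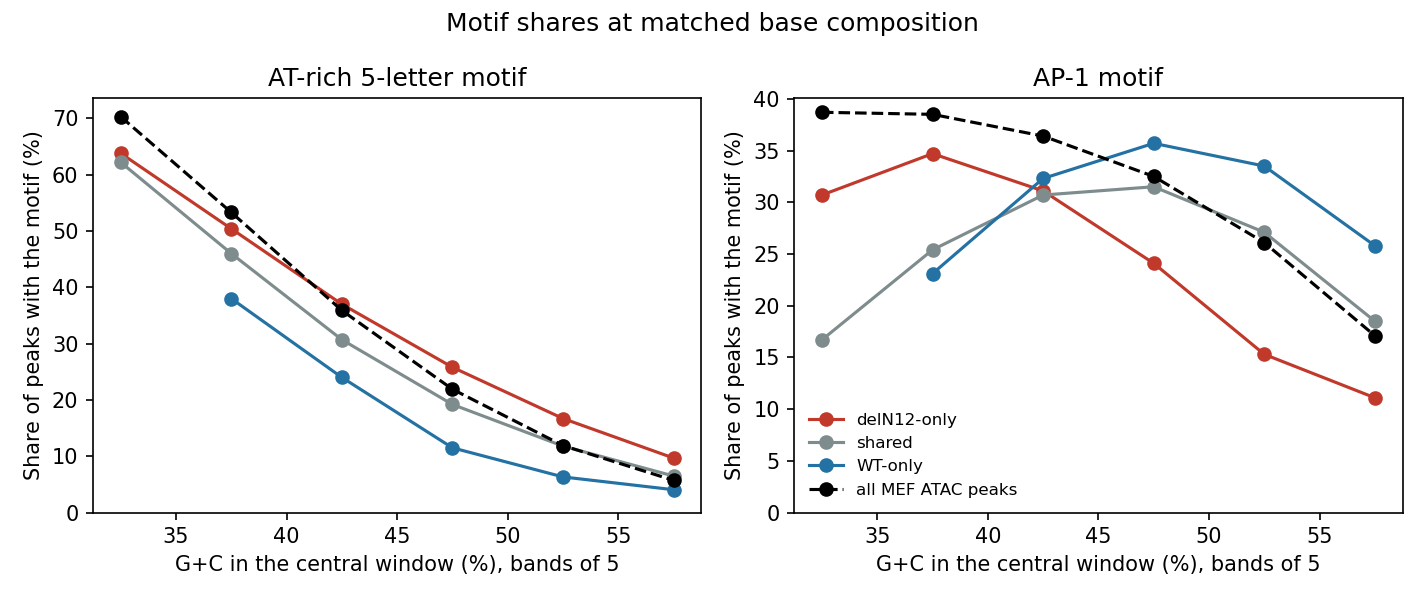
Share of peaks (percent, vertical axes) with ATATT (left) or the AP-1 core TGANTCA (right) in the central 200 bp, in bands of G+C content (horizontal axes, 5 percentage points each), for bands with at least 100 peaks. At 40 to 45% G+C, ATATT was found in 37.0% of delN12-only, 24.0% of WT-only and 35.9% of MEF ATAC-seq peaks.

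TGANTCA was found in 29.1% of the sites, 25.3% of shared, 29.6% of WT-only and 26.6% of MEF ATAC-seq peaks. These similar shares hid differences at matched base composition. At 35 to 40% G+C the AP-1 core was found in 34.7% of delN12-only, 25.4% of shared and 23.1% of WT-only peaks, at 40 to 45% in 31.1%, 30.7% and 32.3%, and at 50 to 55% in 15.3%, 27.1% and 33.5%. MEF ATAC-seq peaks held it in 38.5%, 36.4% and 26.1% of these bands, above the delN12-only sites in each. At the ATAC-seq center of day 1 it was found in 47.5%, 41.9% and 42.4% of delN12-only, shared and WT-only peaks. AGATAA, the core bound by GATA factors, was found in 14.4%, 10.9%, 9.24% and 7.75% of the 4 sets in the same order, but in 14.1%, 14.5%, 15.1% and 11.6% at 40 to 45% G+C. The SOX core ACAATG was found in 15.5%, 11.5%, 11.2% and 9.26%, and the FOX core TGTTTAC in 3.93%, 3.4%, 3.19% and 2.57%. GGGCGG, the GC box of many promoters, was found in 1.9%, 11.9%, 9.42% and 12.8%. The letters of the CTCF motif core were rare in the sites (0.79%) and in WT-only peaks (1.33%) beside 6.16% of MEF ATAC-seq peaks. The 2206 sites that were never open held ATATT in 41.8%, AGATAA in 18.8% and TGANTCA in 26.3%. None of the printed motifs contains another, and a match is a description of the window, not of binding.

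At day 11, genes near the sites were more often lower than higher with SALL4-delN12. Differences between the forms are given as log2(FPKM + 1) with SALL4-delN12 minus that with SALL4-WT, for genes with at least 1 FPKM in either library, and a gene is called higher or lower at a difference of at least 1. At day 11, 6.55% of all 13946 genes tested were higher and 6.58% lower. A site in the promoter marked 1084 protein-coding genes, of which 759 were tested at day 11: 39 (5.14%) were higher and 71 (9.35%) lower, with a median difference of -0.08 against 0.01 over all genes. At day 1, 31 promoter genes were higher and 31 lower (4.66% each). A distal site was nearest to 4707 genes at up to 50 kb, of which 3196 were tested at day 11: 150 (4.69%) were higher and 308 (9.64%) lower, with a median of -0.13. The lower share of these genes was 6.26%, 7.29%, 8.24% and 9.64% at days 1, 5, 9 and 11, against 5.63%, 5.19%, 5.75% and 6.58% of all genes. Their higher share was 4.16%, 4.25%, 4.89% and 4.69%, against 4.18%, 4.67%, 6.09% and 6.55%.

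Genes beside the other SALL4 classes were also more often lower than higher. Genes nearest to a distal shared peak were lower in 8.49% and higher in 5.72% at day 11, and those nearest to a distal WT-only peak in 7.79% and 6.31%. For the 809 genes nearest to a delN12-only site and to no distal shared or WT-only peak, 6.18% were higher and 8.16% lower, with a median of -0.02. Lower genes made up 9.91% where a distal site had H3K27ac with SALL4-delN12 and 9.34% where none had. Genes nearest to a site open at day 11 with SALL4-delN12 only were lower in 10.1%, with SALL4-WT only in 13.2%, in both in 13.3% and in neither in 10.2%, where a gene with several sites can count more than once.

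At days 5, 9 and 11, lower expression was more frequent where at least 4 sites surrounded a gene. At day 1 the lower share was 5.44% without a site, 5.54% with 1, 7.83% with 2 to 3 and 5.41% with 4 to 6. It was 10.0% (2 of 20) with 7 or more, so the day 1 shares showed no steady order. Among genes of 100 to 200 kb, 10.2% of the 49 with at least 4 sites were lower on that day. The shares were 3.73% with 1 to 3 sites and 1.73% without a site. At day 11, genes with no distal site were lower in 5.67%, with 1 site in 7.16%, with 2 to 3 sites in 12.2%, with 4 to 6 sites in 21.2% (38 of 179) and with 7 or more in 25.9% (7 of 27). The higher shares were 7.11%, 5.52%, 3.68%, 1.68% and 0%, the last 0 of 27. Gene length moved with this count, from a median of 14.1 kb without a site to 249 kb with 4 to 6 and 343 kb with 7 or more. Among genes of 100 to 200 kb, 24.1% of the 58 with at least 4 sites were lower, against 7.72% of the 570 with 1 to 3 sites and 8.31% of the 385 without a site. Among genes of at least 200 kb the shares were 20.2% of 119, 14.6% of 274 and 13.4% of 119. In these long genes, 1 to 3 sites thus went with about the same share as no site. In shorter genes they did not. Under 50 kb, 8.62% of 1392 genes with 1 to 3 sites were lower, against 4.4% of 7525 without a site. At 50 to 100 kb the shares were 7.82% of 754 and 5.19% of 963. Counted by distal shared peaks, genes were lower in 5.72% without a peak, 13.4% at 4 to 6 peaks and 12.1% at 7 or more, and counted by WT-only peaks in 6.2%, 12.4% and 0 of 15.

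Sh3kbp1, the gene of an adaptor in receptor endocytosis, had the most distal sites, 11 in all. Its FPKM was 7.79, 6.47, 8.94 and 5.71 with SALL4-WT and 3.17, 2.36, 2.55 and 2.26 with SALL4-delN12 at days 1, 5, 9 and 11, lower on each day. Ank3, Ankrd44 and Pde4d had 10 each. Ank3, the gene of a membrane adaptor of the cytoskeleton, was at 1.25 FPKM with SALL4-WT and 1.88 FPKM with SALL4-delN12 at day 11 and was not called. Ankrd44 was at 9.7 and 4.32 FPKM at day 11, a difference of -1.01, but was not called on the earlier days. Pde4d, the gene of a cAMP phosphodiesterase, was under 1 FPKM in all 8 libraries.

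Ranked by the mean difference of days 9 and 11, the lowest relative levels near distal sites were led by Lox, Ptx3, Fn1 and Mgp. Lox, which encodes the enzyme that cross-links collagen and elastin, had 2 distal sites. Its FPKM was 33.7, 36.8, 51.4 and 74.5 with SALL4-WT and 7.95, 3.62, 3.69 and 6.48 with SALL4-delN12, a difference of -3.34 at day 11. The levels of the forms did not overlap across days. Fn1, which encodes fibronectin, had 1 distal site, at chr1:71673999-71674857. It was at 467, 756, 895 and 958 FPKM with SALL4-WT and 218, 87.7, 110.2 and 87.4 FPKM with SALL4-delN12. That site had no MEF peak, and its ATAC-seq scores with SALL4-delN12 were 54.4, 77.6 and 114 at days 5, 9 and 11, with no H3K27ac peak in either form. The site was thus open only in the form with the lower level of Fn1, which also had 2 distal shared peaks and 1 WT-only peak.

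Ptx3, which encodes a secreted pentraxin, had 3 distal sites and was at 185 FPKM with SALL4-WT and 14.0 FPKM with SALL4-delN12 at day 11. Mgp, the gene of matrix Gla protein, was at 126 and 13.8 FPKM. Prss23, Prg4, which encodes the lubricant proteoglycan 4, Kng2, Chga and Matn2, the gene of matrilin 2, differed by -3.57, -3.4, -2.59, -2.99 and -2.69 at day 11. Efemp1, the gene of the matrix protein fibulin 3, had 6 distal sites and 1 in its promoter. It was at 5.02, 17.6, 20.8 and 43.2 FPKM with SALL4-WT and 3.01, 2.55, 2.01 and 3.24 FPKM with SALL4-delN12. It also had 2 distal shared peaks and 1 WT-only peak.

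Among genes with a site in the promoter, C2cd4a and Cp had the lowest relative level. C2cd4a, a gene linked to inflammation, was at 18.2, 58.7, 72.5 and 72.8 FPKM with SALL4-WT and 5.76, 6.57, 2.99 and 3.42 FPKM with SALL4-delN12. Cp, which encodes the copper carrier ceruloplasmin, was at 4.37, 31.6, 39.7 and 62.7 FPKM against 0.295, 1.14, 2.56 and 4.52 FPKM, and was the nearest gene of no distal SALL4 peak of the 3 classes. Both were lower with SALL4-delN12 on each of the 4 days. Vcan, the gene of the proteoglycan versican, and Col15a1, that of a basement membrane collagen, differed by -2.69 and -2.42 at day 11. Others among the 10 lowest were Prl2c2, Prr9, Adam22 and Pcdh7, at -2.82, -2.1, -2.48 and -2.32. Prl2c2 has near-identical copies among which reads may be split, so its value is uncertain.

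Genes higher with SALL4-delN12 were fewer. Igf2, a fetal growth factor gene, had 1 distal site and was at 758, 1542, 1671 and 1623 FPKM with SALL4-delN12 and 358, 107, 107 and 169 FPKM with SALL4-WT. Col26a1 was at 1.42, 69.7, 105 and 93.0 FPKM with SALL4-delN12 and 0.193, 10.4, 7.33 and 13.6 FPKM with SALL4-WT. Krt8 and Krt7, keratins of simple epithelia, were at 169 and 32.4 FPKM at day 11 with SALL4-delN12 and at 31.8 and 7.84 FPKM with SALL4-WT, and both were already apart at day 1 (141 against 9.79 and 78.0 against 1.78 FPKM). Tmprss2, an epithelial protease gene, was at 2.5, 45.4, 16.1 and 19.5 FPKM against 0.318, 0.537, 1.02 and 2.17 FPKM. Nkd2, with a distal site, and Nkd1, with a promoter site, encode inhibitors of WNT signaling. Nkd1 was at 69.7, 80.5, 123 and 71.9 FPKM with SALL4-delN12 and 12, 27.2, 22.1 and 23.4 FPKM with SALL4-WT. The rest of the 10 highest of each kind were Gpx3, Myl9 and Rps6ka6 near distal sites, at 2.5, 2.78 and 2.94 on the log2 scale, and, with promoter sites, Gng2, Tmem132c, Hhipl1, C1qtnf1, Morc4, Pcsk7 and Slc2a3, at 0.87 (Tmem132c, below a call) to 1.85.

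Some higher genes are known from macrophages. Ctss, a lysosomal protease gene with 1 distal site, was at 15.1, 23.7, 27.6 and 51.2 FPKM with SALL4-delN12 and 7.82, 4.71, 4.69 and 4.77 FPKM with SALL4-WT. Ms4a6d and the Fc receptor gene Fcgr3, both with a promoter site, differed by 3.01 and 2.02 at day 11. The list of 10 macrophage markers moved with the form in the same libraries. Its summed level was 415, 204, 170.2 and 194 FPKM with SALL4-WT and 421, 518, 574 and 1199 FPKM with SALL4-delN12. At days 9 and 11, 9 of 9 tested markers were higher, beside 6.09% and 6.55% of all genes tested. The defining marker Ptprc was under 1 FPKM in all 8 libraries and moved the same way, at 0.667, 0.262, 0.125 and 0.0882 FPKM with SALL4-WT and 0.432, 0.529, 0.549 and 0.892 FPKM with SALL4-delN12. Of the 10 markers, 2 (20%) had a delN12-only site within 50 kb, against 40.6% of all protein-coding genes. The part of macrophages in these genes was not tested.

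**Figure D5:**
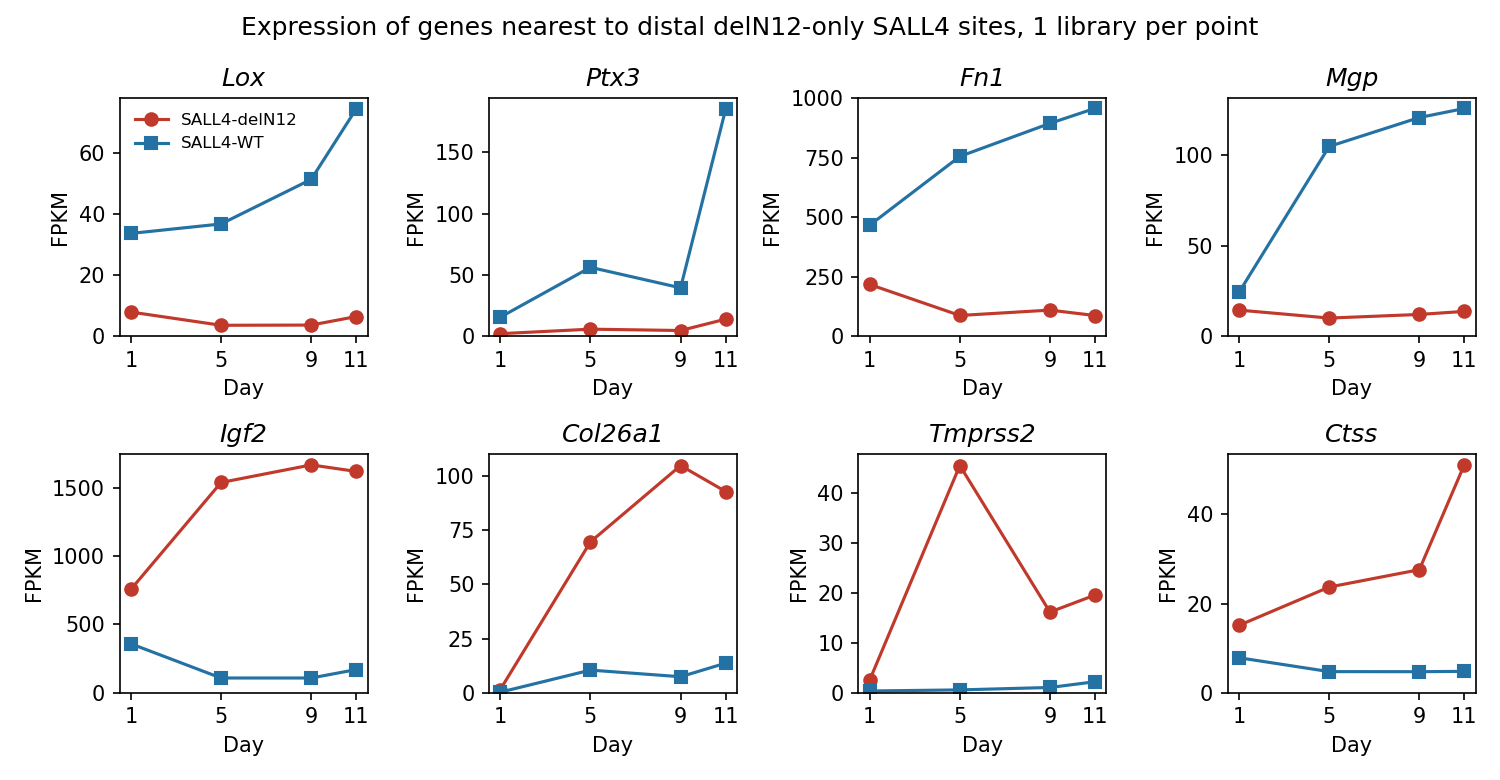
FPKM (vertical axes, from 0, scaled for each gene) by day (horizontal axes) of 4 genes that were lower (top) and 4 that were higher (bottom) with SALL4-delN12 (red circles) than with SALL4-WT (blue squares), each nearest to at least 1 distal delN12-only site, 1 library per point. Fn1 was at 87.4 FPKM with SALL4-delN12 and 958 FPKM with SALL4-WT at day 11, and Igf2 at 1623 and 169 FPKM.

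Most of the fibroblast genes had a site nearby. All 20 genes of the list were at 1 FPKM or more in each of the 8 libraries. Of these 20 fibroblast genes, 15 had a delN12-only site within 50 kb of a start (75.0%), against 40.6% of all 21992 protein-coding genes, and the sites lay in the promoters of Col3a1 and Prrx1. The 15 had a median difference of -0.86 at day 11, with 7 lower (46.7%, against 6.58% of all genes tested) and 1 higher (6.67%, against 6.55%), and the 5 without a site a median of -0.65, with 2 lower and 1 higher. Col3a1, a fibrillar collagen gene with 5 sites, was at 14.3, 51.4, 73.8 and 93.9 FPKM with SALL4-WT and 7.31, 21.4, 28.0 and 31.0 FPKM with SALL4-delN12. Prrx1, a mesenchymal homeobox gene with 3 sites, was at 28.1, 41.1, 43.9 and 47.3 FPKM against 10.5, 12.9, 10.3 and 12.6 FPKM. Other genes of the list went the other way on early days. At day 1, 4 of the 15 with a site were higher (26.7%, against 4.18% of all genes tested) and 6 lower (40%, against 5.63%), the higher ones being Col1a1, Col5a1, Thy1 and Pdgfrb at 1.82, 1.31, 2.18 and 1.5. Col1a1 was at 472, 693, 727 and 755 FPKM with SALL4-WT and 1666, 1424, 1356 and 1065 FPKM with SALL4-delN12, called higher at days 1 and 5 but not at days 9 and 11. Tagln, a smooth muscle and myofibroblast gene, was the 1 called higher at day 11, at 25.7 and 135 FPKM.

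HOX genes, which set position along the body axis, had a site within 50 kb in 30 of 39 (76.9%, against 40.6% of all protein-coding genes). The genes of a cluster lie close together and share these sites, so the 30 are not separate cases. A site lay in the promoter of 5 of them: Hoxa3, Hoxa9, Hoxb6, Hoxc6 and Hoxd3. Of the 26 tested with a site nearby, 8 were lower (30.8%, against 6.58% of all genes tested) and 0 higher at day 11, with a median of -0.78. The 6 tested without a site had a median of -0.53, with 1 lower and 1 higher. Hoxc8 was at 27.7, 19.7, 12.6 and 16.8 FPKM with SALL4-WT and 7.82, 4.33, 1.77 and 4.31 FPKM with SALL4-delN12.

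Genes of the primitive endoderm (PrE), the extra-embryonic layer whose formation the study followed, had a site within 50 kb in 14 of 22 (63.6%, against 40.6% of all protein-coding genes) and in the promoter in 0 of 22. At day 5, 4 of 12 tested PrE genes with a site were lower (33.3%, against 5.19% of all genes tested) and 0 higher. These were the collagen genes Col4a1 and Col4a2, Klf4, a zinc finger factor gene, and Nid1, at -1.8, -1.52, -1.99 and -1.36. Col4a1 and Col4a2 share the site at chr8:11334389-11335992, 22.4 kb from a start of each, so they are not separate cases. At day 11 the 14 had a median difference of 0.43, with 5 higher (35.7%, against 6.55% of all genes) and 1 lower (7.14%, against 6.58%). Among the 8 without a site, 7 were higher on that day, and their median was 3.41. PrE genes with the largest differences, such as the regulators Sox17 and Gata4, were thus among those without a site. Gata4 was at 29.3 FPKM with SALL4-delN12 and 1.51 FPKM with SALL4-WT at day 11, and Sox17 at 16.2 and 0.224 FPKM. Among those with a site, Dab2, an endocytic adaptor gene with 5 sites, was at 22.7 and 10.0 FPKM at day 11, and Nid1, a basement membrane gene with 2 sites, was the 1 lower gene of that day, at 50.7 and 133 FPKM.

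In the other lists, a site lay within 50 kb of 9 of 21 pluripotency genes (42.9%), 5 of 12 visceral endoderm genes (41.7%), 5 of 11 AP-1 genes (45.5%), 5 of 15 neural transcription factor genes (33.3%), 6 of 10 endothelial genes (60%) and 4 of 6 BMP target genes (66.7%), beside 40.6% of all protein-coding genes. Esrrb, a nuclear receptor gene of pluripotent cells, was at 1.46, 21.0, 15.5 and 6.49 FPKM with SALL4-delN12 and 0.025, 1.85, 1.82 and 2.0 FPKM with SALL4-WT. Its 1 site, in an intron, had no ATAC-seq peak in any library. All 4 tested pluripotency genes with a site were higher at day 11, beside 6.55% of all genes: Esrrb by 1.32, Pou5f1 by 1.63, Dppa5a by 2.55 and Klf2 by 1.32, while Klf2 was lower by 1.08 at day 5. Of the 6 tested without a site, 2 were higher and 1 lower at day 11. Among visceral endoderm genes, 1 of 3 tested with a site and 6 of 6 tested without were higher on that day. Junb, an AP-1 gene with a site in the promoter, was at 239, 259, 258 and 229 FPKM with SALL4-WT and 128, 106, 77.4 and 111 FPKM with SALL4-delN12. Atf3, a stress-induced gene of the same list with 2 sites, went the other way, higher with SALL4-delN12 by 1.04, 1.07, 1.42 and 1.89 on the log2 scale at days 1, 5, 9 and 11. Of the 5 AP-1 genes with a site, 1 was higher and 1 lower at day 11, too few genes to set against the 6.55% and 6.58% of all genes. Id3, a direct target of BMP signaling with 1 site, was lower by 1.91, 1.14, 1.07 and 0.43 at days 1, 5, 9 and 11. Smad7, with 2 sites, went the other way, by 0.09, 0.54, 0.07 and 0.66, below a call on each day. Of the 6 BMP targets, 4 were lower at days 1, 5 and 9, beside 5.63%, 5.19% and 5.75% of all genes. At day 1, 1 of the 6 was higher, beside 4.18% of all genes, and at day 11 0 of the 6 were called. Of 15 NuRD genes, 5 had a site nearby, among them Hdac2 and Mbd3, and 0 of 14 tested NuRD genes were called in either direction at day 11, a count that is near the 6.55% higher and 6.58% lower of all genes for so short a list. Sall4 had no site within 50 kb. Its FPKM, which can include the retroviral cDNA, was 549, 491, 518 and 290.3 with SALL4-WT and 809, 623, 971 and 428 with SALL4-delN12, so the form with these sites was also the one with more Sall4 RNA on each day.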

How the data were processed

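SALL4 and H3K27ac Cut&Tag of day 6, ATAC-seq and bulk RNA-seq were used for SALL4-WT and SALL4-delN12, with 1 sample per condition. For Cut&Tag and ATAC-seq, the authors mapped reads with Bowtie2 2.4.5, merged Cut&Tag replicates, called peaks with MACS 1.4.2 (no control library stated) and deposited peak lists on mm10 with a score, which is 10 times the negative log10 of the p-value and at least 50. For RNA-seq, the authors used Trim Galore 0.6.4, HISAT2 2.2.1 and StringTie 2.2.1 and deposited FPKM for 35976 genes. Read numbers behind peaks and FPKM were not given in the sources used here, so depth is known only as peak number and covered length (listed for 13 peak lists, of which the ATAC-seq ones held 78517 to 125470 peaks), and read depth limits the precision to an unknown degree. Reads of the RNA-seq were not stated to be counted by strand.

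Overlap meant at least 1 bp. Promoters reached 2 kb to each side of a transcript start of a protein-coding gene (GENCODE vM21, GRCm38.p6, the same sequence as mm10), and every peak end lay within its chromosome there. A distal site was assigned to the nearest start within 50 kb of its center. Shares carry exact (Clopper-Pearson) 95% intervals. RNA differences are of log2(FPKM + 1), on which changes of low genes are understated. Motifs were counted in the central 200 bp, and 2 sites on a contig without a gene and sequence entry were left out there. Scripts in Python 3.11.15 (pandas 2.3.3, scipy 1.17.1, pysam 0.24.0) were tested on simulated data.

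Named genes were those of the fixed lists with a site in the promoter or within 50 kb, the 10 largest differences in each direction for promoter and for distal sites (FPKM at least 5 at day 11, ranked by the mean of days 9 and 11, same sign on both), and the genes nearest to the 10 strongest sites, also within the newly opened and the kept sites. Genes with at least 10 distal sites (Sh3kbp1, Ank3, Ankrd44, Pde4d) and the PrE genes without a site (Sox17, Gata4) were chosen after their values were seen. The sites, lists and motifs were chosen with earlier results of these data known. Alternatives changed the minimum score, overlap, promoter width, annotation, distance, FPKM filter, pseudocount, centering and motif window. Some genes that the rule for named genes selects are not reported here.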

Additional observations from a re-analysis of the deposited data

How the results depend on the processing

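Each main value changed under some of the alternative settings, as given below. The ATAC-seq and H3K27ac differences between the forms stayed positive in every setting run for them. Lower genes outnumbered higher ones at day 11 in every setting run for promoter and for distal sites. The shares of all genes under these settings are not given here. These counts thus do not show whether the difference from all genes was kept. The number of sites was 16831, and 32249 or 6059 at a minimum score of 50 or 200. Promoters held 6.65%, or 4.36% at 1 kb, 11.8% with all annotated genes, 5.31% at score 200 and 5.88% without a SALL4-WT peak within 1 kb. The ATAC-seq difference of 43.5 points at day 1 was 57.5 at score 200, 32.9 at scores of 100 to 150 and 24.5 with ATAC-seq peaks of score 100 or more. At day 11 the 12.3 points became 16.5, 8.6 and 9.18. The H3K27ac difference of 29.9 points was 42.9, 19.7 and 15.6 under these settings, 29.1 without a SALL4-WT peak within 1 kb, and 35.8 at sites open at day 5 with SALL4-delN12 only, a setting added after seeing the data. The 39 higher promoter genes were 64 at a pseudocount of 0.1, 20 at 5 FPKM, 13 at score 200 and 18 without a SALL4-WT peak in the promoter. The 71 lower promoter genes were 105, 54, 18 and 27 under the same settings. The 150 higher genes near distal sites were 238, 91 and 64 under the first 3 settings, 63 at 10 kb and 50 where no distal shared or WT-only peak was nearest. The 308 lower ones were 465 at a pseudocount of 0.1, 244 at 5 FPKM and 163 at score 200. They were 119 at 10 kb and 66 near no other peak (added after seeing the data). Fewer sites or genes enter at higher scores and shorter distances. ATATT (39.5%) was found in 91.7% of whole peaks, 35.1% at the ATAC-seq center and 37.0% at 40 to 45% G+C, and TGANTCA (29.1%) in 62.6%, 47.5% and 31.1%, the last 2 added after seeing the data. Causes not given here were not tested. A fit over the 4 shared days, with day as a block, could have been made and was not run.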
